A study of Mus musculus with 10 samples.

Results

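The necroptosis and RIPK complex genes described here were 10 genes chosen by name, Ripk1, Ripk2, Ripk3, Mlkl, Cflar, Fadd, Birc2, Birc3, Xiap and Traf1, of 23382 NCBI gene rows in the count table. All 10 had a row and passed the filter on low counts. Their levels were measured by bulk RNA-seq in mouse peritoneal macrophages, cells drawn into the peritoneal cavity by thioglycollate broth, from C57BL/6 mice aged 8 weeks. The control group held 5 libraries, labelled as untreated and, like the treated ones, described by the submitters as biological replicates. The ox-LDL group held 5 libraries from cells given lipopolysaccharide (LPS, a bacterial product that activates macrophages) at 100 ng/ml and then oxidized low-density lipoprotein (ox-LDL, the modified cholesterol carrier taken up by macrophages of the arterial wall) at 100 µg/ml for 16 h. From the series design it is not certain that the controls went without LPS. Under the labels, which were followed, effects of LPS and of ox-LDL cannot be told apart.

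Necroptosis is a lytic form of cell death. When death receptors are engaged and caspase-8 is held back, the kinases RIPK1 and RIPK3 bind each other through a shared motif called RHIM. On routes from Toll-like receptors or nucleic acid sensors, other RHIM proteins, such as ZBP1, can bind RIPK3. RIPK3 phosphorylates the pseudokinase MLKL, and MLKL permeabilizes the plasma membrane. In the same protein complexes FADD and the caspase-8 homologue cFLIP (Cflar) set whether caspase-8 cleaves the kinases, and the ubiquitin ligases cIAP1 (Birc2) and cIAP2 (Birc3), bound to TRAF proteins, attach ubiquitin to RIPK1 and so keep it in a signaling rather than a killing state. Macrophages are known to carry this machinery and can die by it when caspases are blocked.

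Sequences are shown for the coding run that limits how 2 members can be told apart and for the promoters of 3 of the 4 members with the largest change. The transcripts of Birc2 and Birc3, neighbouring genes 13443 bases apart on chromosome 9, share an identical coding run of 114 bases, at chr9:7821098-7821211 in Birc2 and chr9:7854491-7854604 in Birc3 (build mm9, minus strand), and reads that lie within it cannot be given to either gene with certainty. Among the other pairs of members the longest identical run was 59 bases, in Cflar and Fadd. The shared run and the 100 bases before the annotated start of Mlkl, Birc3 and Traf1 are printed 5′ to 3′, and Cflar, the remaining member of the 4, follows with its motif. The promoters are from RefSeq (GRCm38.p6, not the build of the counts), at chr8:111338206-111338305 for Mlkl, chr9:7873171-7873270 for Birc3 and chr2:34961773-34961872 for Traf1, each on the minus strand.
Birc2 and Birc3 shared coding run: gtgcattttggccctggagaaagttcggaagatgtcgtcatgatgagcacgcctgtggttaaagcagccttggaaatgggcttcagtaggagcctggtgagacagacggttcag
Mlkl promoter: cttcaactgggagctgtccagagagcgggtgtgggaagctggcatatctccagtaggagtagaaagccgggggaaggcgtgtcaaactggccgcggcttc
Birc3 promoter: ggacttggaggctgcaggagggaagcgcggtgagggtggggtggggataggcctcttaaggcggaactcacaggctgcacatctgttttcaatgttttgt
Traf1 promoter: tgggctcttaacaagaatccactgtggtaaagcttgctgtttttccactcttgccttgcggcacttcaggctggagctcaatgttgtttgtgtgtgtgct

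Promoters of 9 of the 10 members were in the RefSeq table, and Ripk2 had no entry. Each window ran from 250 bases before to 50 bases after the annotated start and was searched on both strands for the NF-kB consensus, the interferon-stimulated response element core (ISRE, GAAANNGAAA), the STAT site (GAS, TTCNNNGAA) and the AP-1 site (TGANTCA). Of 32851 mouse promoters of the same length, 8.46% held the NF-kB consensus, 3.44% the ISRE core, 8.3% the GAS and 7.81% the AP-1 site. The ISRE core lay in the Cflar promoter, 6 bases after the start on the opposite strand, and in 1 of 2 Ripk1 promoters. The Ripk1 promoter with the ISRE core also held the GAS, of which 1 match overlapped the ISRE core. The NF-kB consensus lay in 1 of 3 Xiap promoters, and no member promoter held the AP-1 site. The Mlkl, Birc3 and Traf1 windows held none of the 4 motifs. A match is a description of these letters and not a binding site. Around the ISRE core, in capitals, Cflar (chr1:58711487-58711516, plus strand) and Ripk1 (chr13:34002859-34002888, plus strand) read as follows in GRCm38.p6.
Cflar: ccacgtctgcTTTCGGTTTCtgggcgtctc
Ripk1: aacgttcccgGAAATCGAAAagcgcggaac

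The total count was 20094647 to 20687289 in the control libraries and 19257131 to 20358017 in the ox-LDL libraries, and members held between 52 and 4909 counts in a library. Levels are given as CPM, which divides each count by the library's total, adjusted between libraries by edgeR's TMM method. Ox-LDL replicate 2 stood apart with a TMM factor of 0.593 (all others 0.837 to 1.19), so values in that library rest more on the scaling and each result is given with and without it where that matters. Its chi-square per degree of freedom against others of its group was 451 to 514, and at most 205 for other pairs within a group. Of the ox-LDL libraries it was highest for the short Chmp2a (787 bases) and Zbp1 (826 bases) and lowest for the long Xiap (5787 bases). For Tlr4 (7616 bases) it was not the lowest. A single factor per library cannot remove a difference that follows gene length, and the part of length was not tested. Genes were tested by edgeR's quasi-likelihood test with Benjamini-Hochberg adjustment over 12654 genes, and a gene is said to rise or fall at an adjusted p below 0.01. The summed level of 7 macrophage markers (library-size CPM) was 22622 to 41936 in the control libraries and 12756 to 27770 in the ox-LDL libraries. Most of it was Lyz2 (20201 to 40137 and 9209 to 25959 CPM), whereas Adgre1, the gene of F4/80, was 175 to 338 CPM in the control and 402 to 1923 CPM in the ox-LDL libraries. The groups overlapped for the other macrophage markers, Cd68, Csf1r, Itgam, Mertk and Fcgr1, as they did for Lyz2. The summed level of the 7 neutrophil markers with a row was 48.8 to 115 in the control and 66.6 to 190 in the ox-LDL libraries, and that of 6 mesothelial and stromal markers 3.77 to 13.1 and 7.39 to 38.1. Within the latter list Col1a1 was 1.21 to 5.15 and 5.05 to 32.2 CPM, whereas Upk3b was 0.290 to 0.844 and 0 to 0.260 CPM. For Msln, Wt1, Krt19 and Col3a1 the groups overlapped. Within the neutrophil list S100a8 was 6.23 to 12.7 and 12.6 to 88.9 CPM, Csf3r 35.8 to 99.2 and 21.7 to 136 CPM, Cxcr2 0.297 to 0.647 and 0 to 0.102 CPM, and S100a9, Mpo and Elane were at most 0.392 CPM. The eosinophil and mast cell sum was 2.85 to 7.65 CPM in the control and 0.359 to 1.82 CPM in the ox-LDL libraries, without overlap. Within it Siglecf was separate (2.47 to 6.55 and 0.256 to 0.609 CPM) and Cpa3 overlapped (0.387 to 4.12 and 0.102 to 1.42 CPM). Sums for B cells, T and NK cells, and dendritic cells were at most 3.45 CPM in any library. The part of these markers in the results below was not tested. In bulk RNA a lower level per cell and fewer cells of a type cannot be told apart.

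Mlkl, Cflar, Birc3, Traf1 and Ripk2 rose in ox-LDL-treated macrophages, by 31.2-fold for Traf1, 7.92-fold for Mlkl, 6.72-fold for Cflar, 5.17-fold for Birc3 and 2.04-fold for Ripk2. The initiating kinase Ripk1, the adaptor Fadd and the caspase inhibitor Xiap did not pass the test, with fitted log2 fold changes of -0.01 for Ripk1, -0.26 for Fadd and -0.03 for Xiap. Thus 5 of 10 members rose, where 9.4% of all genes tested did, and none fell, where 5.35% of all genes did. The members were chosen with earlier results of these data known, so the comparisons with all genes are descriptions and not a test. At an unadjusted p below 0.05, edgeR gave 7 members higher and 0 lower, where 23% of all genes were higher and 15.8% lower, and DESeq2 and limma-voom gave the same 7 and 0 as counts. For DESeq2 and limma-voom no share over all genes at an unadjusted p is given. At an adjusted p below 0.01 they called 1765 and 1151 of all genes higher, and edgeR 1189. In 7 members every ox-LDL library lay above every control library, an arrangement found in 11.6% of all genes. Scaled by library size alone, 4 members kept this separation (Mlkl, Cflar, Birc3 and Traf1), against 6.18% of all genes, and the same 4 did in FPKM, while ox-LDL replicate 2 fell within the control range for Ripk2, Ripk3 and Birc2. With a log2 fold change above 2 also required, 4 members remained, against 4.78% of all genes. The median log2 fold change was 0.88 over the 10 members and 0.10 over all genes tested.

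**Figure D1:**
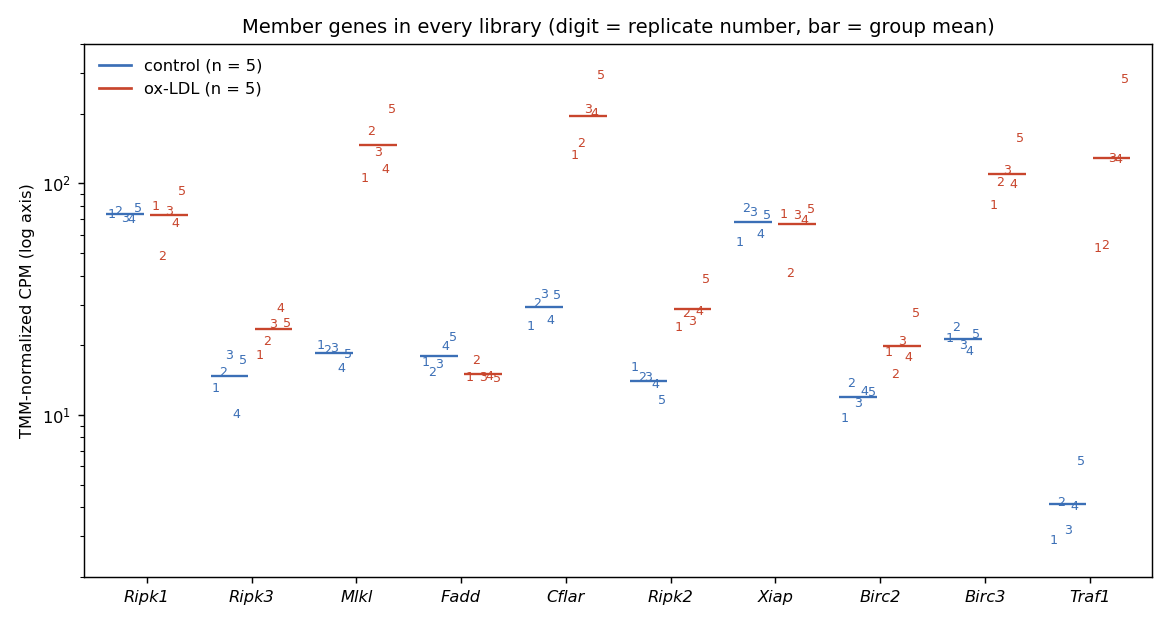
TMM-normalized CPM of the 10 member genes on a log axis in each of 5 control (blue) and 5 ox-LDL (red) libraries, where each digit is a replicate number and each bar a group mean. With TMM scaling Mlkl, Cflar, Birc3 and Traf1 are separated by a wide gap, Ripk2, Ripk3 and Birc2 by a narrower one that closes by library size, and the Ripk1, Fadd and Xiap groups overlap.

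Among the kinases that start the pathway, Ripk1 (chr13:34094232-34127039, plus strand, in mm9 like all gene positions below) gave no difference that passed the test. Ripk1 encodes the kinase and scaffold recruited to the TNF receptor. Its level was 73.5, 75.6, 70.2, 69.8 and 78.1 CPM in control replicates 1 to 5 and 79.7, 48.4, 75.7, 67.4 and 92.7 CPM in ox-LDL replicates 1 to 5. The ox-LDL libraries lay on both sides of the narrow control range, with replicate 2 lowest and replicate 5 highest. The fitted log2 fold change was -0.01 (SE 0.185, edgeR adjusted p = 0.968), and leaving out ox-LDL replicate 2 gave 0.06 (adjusted p = 0.732). The coefficient of variation among libraries of a group was 4.81% in the control and 22.6% in the ox-LDL group. Ripk1 overlaps Serpinb6a and a pseudogene on the opposite strand and a further transcript on its own strand, and since the sources used here do not say whether counting used the strand, reads from the shared bases are uncertain.

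Ripk3 (chr14:56403833-56407694, minus strand), the RHIM kinase that phosphorylates MLKL, missed the threshold. Its level was 13.0, 15.2, 18.0, 10.0 and 17.1 CPM in the control and 18.0, 20.7, 24.5, 28.9 and 25.0 CPM in the ox-LDL libraries. On this scale the groups were narrowly separate, with the lowest ox-LDL library (replicate 1) and the highest control library (replicate 3) both at 18.0 CPM after rounding. By library size they overlapped, with ox-LDL replicate 2 at 12.1 CPM and the controls at 9.70 to 20.8 CPM. The log2 fold change was 0.67 (SE 0.203, edgeR adjusted p = 0.0285). Scaling by library size in place of TMM gave 0.49 (adjusted p = 0.298), and leaving out ox-LDL replicate 2 gave 0.68 (adjusted p = 0.0171).

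Mlkl (chr8:113835697-113862077, minus strand), the pseudokinase that carries out membrane lysis, rose, and every ox-LDL library lay above every control library. It was 20.0, 18.9, 19.3, 15.8 and 18.2 CPM in the control and 105, 167, 136, 115 and 208 CPM in the ox-LDL libraries. The lowest treated library, replicate 1, was far above the highest control, and the control libraries differed little. The mean was 18.5 ± 1.62 CPM (SD, n = 5 libraries) in the control and 146 ± 42.2 CPM (SD, n = 5 libraries) in the ox-LDL group. Mlkl had a log2 fold change of 2.99 (SE 0.223, edgeR adjusted p = 7.34e-06), and 2.89 without ox-LDL replicate 2.

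Fadd and Cflar encode the adaptor that recruits caspase-8 and the homologue that pairs with caspase-8 and limits it. Fadd (chr7:151763223-151768368, minus strand) was 15.3 to 21.7 CPM in the control and 14.4 to 17.1 CPM in the ox-LDL libraries, and the ranges overlapped. Its log2 fold change was -0.26 (SE 0.157, edgeR adjusted p = 0.242). Of the ox-LDL libraries, 4 lay within 14.4 to 14.7 CPM, below every control library, and replicate 2 lay at 17.1 CPM. By library size the place of replicate 2 turned around, since at 9.99 CPM it was the lowest treated library. Without replicate 2 the log2 fold change was -0.35 (edgeR adjusted p = 0.0778). Most of the Fadd gene overlaps Gm10574 on the opposite strand, so its reads are uncertain in the same way as those of Ripk1.

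Cflar (chr1:58768352-58815728, plus strand) rose, again with no overlap between the groups. It was 24.1, 30.4, 33.1, 25.6 and 32.9 CPM in the control and 132, 148, 208, 201 and 293 CPM in the ox-LDL libraries. The groups were far apart, and replicates 1 and 2 were lowest and replicate 5 highest among the treated libraries. Its log2 fold change came to 2.75 (SE 0.246, edgeR adjusted p = 2.36e-05). The counts are per gene, so the long and short forms of cFLIP, which are known to differ in their effect on caspase-8, are not separated.

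The ubiquitin ligases of the complex differed, and only Birc3 of the 3 passed the test. Birc3 (chr9:7848699-7873186, minus strand), which encodes cIAP2 and is a known NF-kB target, was 21.3, 23.8, 20.0, 18.7 and 22.3 CPM in the control and 80.1, 101, 113, 98.7 and 156 CPM in the ox-LDL libraries. All treated libraries lay above all controls, and the log2 fold change was 2.37 (SE 0.202, edgeR adjusted p = 1.73e-05). Birc2 (chr9:7818236-7835255, minus strand), which encodes cIAP1, was 9.68, 13.7, 11.2, 12.7 and 12.5 CPM in the control and 18.7, 14.9, 20.7, 17.7 and 27.4 CPM in the ox-LDL libraries. The Birc2 groups stood close without overlap on this scale. By library size, ox-LDL replicate 2 lay at 8.69 CPM within the control range of 8.69 to 15.4 CPM, and the other treated libraries lay at 19.2 to 22.5 CPM. The log2 fold change of Birc2 was 0.73 (SE 0.193, edgeR adjusted p = 0.0148), above the threshold, and 0.78 (adjusted p = 0.00445) without that library. With library size alone it was 0.57 (adjusted p = 0.200).

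Xiap (chrX:39412856-39462833, plus strand), the inhibitor of caspases that also attaches ubiquitin to RIPK2, was 55.4 to 77.6 CPM in the control and 40.7 to 77.1 CPM in the ox-LDL libraries. The groups overlapped, 4 ox-LDL libraries lay between 68.8 and 77.1 CPM, and replicate 2 lay at 40.7 CPM. The log2 fold change was -0.03 (SE 0.202, edgeR adjusted p = 0.923), and 0.06 without replicate 2.

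Traf1 (chr2:34797270-34817292, minus strand), a TRAF protein without a ligase domain that binds TRAF2 and the cIAPs, had the largest change among the members. It was 2.88, 4.19, 3.17, 4.02 and 6.30 CPM in the control and 52.4, 54.1, 128, 127 and 281 CPM in the ox-LDL libraries. The groups were far apart, yet the treated libraries fell unevenly, with replicates 1 and 2 lowest, replicates 3 and 4 nearly equal and replicate 5 highest. The log2 fold change was 4.96 (SE 0.506, edgeR adjusted p = 4.57e-05), and 5.12 without ox-LDL replicate 2. The coefficient of variation of Traf1 in the ox-LDL group, 72.4%, was the highest of the members.

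Ripk2 (chr4:16049880-16090794, minus strand), the kinase downstream of the bacterial sensors NOD1 and NOD2, had the smallest fitted change of the 5 members that rose. It was 16.0, 14.6, 14.5, 13.6 and 11.6 CPM in the control and 23.8, 27.4, 25.4, 28.0 and 38.4 CPM in the ox-LDL libraries. On this scale the groups did not overlap. By library size they did, with ox-LDL replicate 2 at 16.0 CPM, the controls at 13.1 to 16.7 CPM and the other treated libraries at 26.6 to 31.6 CPM. Its fitted log2 change was 1.03 (SE 0.177, edgeR adjusted p = 0.0013). With library size alone it was 0.84 (adjusted p = 0.0271), and on log2(FPKM + 1) in limma it was 0.72 (adjusted p = 0.0291). Both missed the threshold.

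In TMM-normalized CPM, ox-LDL replicate 5 held the highest treated level of 8 members, replicate 1 the lowest of 6, and replicate 2 the lowest of 3 (Ripk1, Birc2 and Xiap). This order depends on the scaling. In CPM by library size and in FPKM, ox-LDL replicate 2 held the lowest treated level of all 10 members, and replicate 5 held the highest of 6 by library size and of 5 in FPKM. All 5 members that rose kept an adjusted p below 0.01 in edgeR when any 1 library was left out. Mlkl, Cflar, Birc3 and Traf1 did so in all 24 other fits, of which 10 left out a library, and Ripk2 under 19 of them.

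Levels of different genes were compared as FPKM, which divides by gene length. In the control macrophages Ripk1 stood highest at 22.6 ± 2.85 FPKM (SD, n = 5 libraries) and Traf1 lowest at 1.75 ± 0.751 FPKM. Between them the order was Xiap at 12.9, Mlkl at 10.9, Birc3 at 10.8, Ripk3 at 9.08, Cflar at 8.82, Ripk2 at 7.61, Fadd at 7.24 and Birc2 at 3.88 FPKM. Of these neighbours, ranges over libraries were separate for Ripk1 and Xiap and for Fadd and Birc2. All the other neighbours in the control order overlapped.

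**Figure D2:**
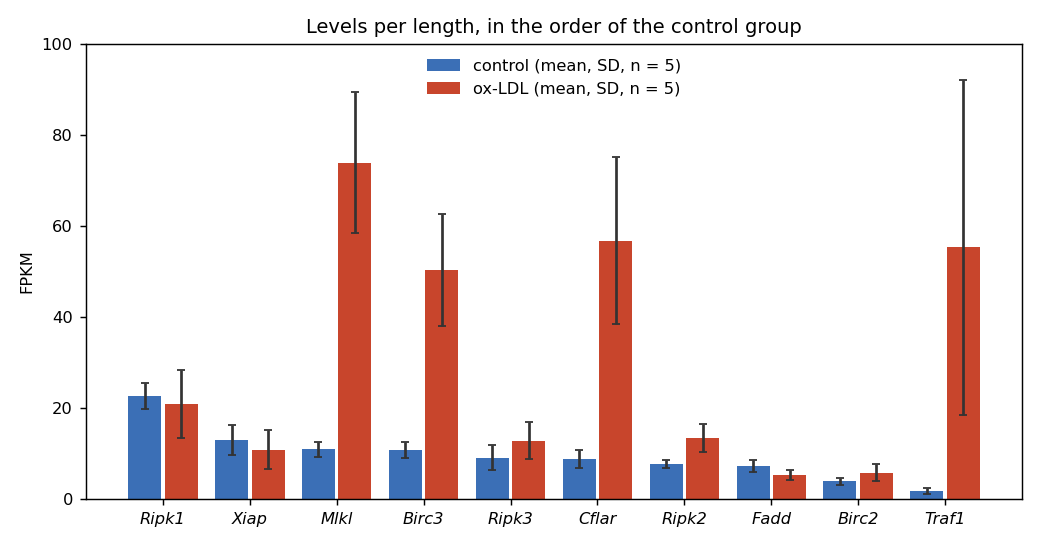
Mean FPKM of the 10 members in the control (blue) and ox-LDL (red) groups, ordered by the control mean, with error bars of 1 SD over 5 libraries. Ripk1 is highest in the control group, and Mlkl, Cflar, Traf1 and Birc3 are highest in the ox-LDL group, where Traf1 has the widest error bar.

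In ox-LDL-treated macrophages the same scale gave another order. Mlkl was highest at 73.9 ± 15.4 FPKM (SD, n = 5 libraries), followed by Cflar at 56.8, Traf1 at 55.3 and Birc3 at 50.3 FPKM, and the ranges of these 4 neighbours overlapped. Ripk1 came next at 20.9 FPKM, separate from Birc3 above it. Below it lay Ripk2 at 13.4, Ripk3 at 12.8, Xiap at 10.9, Birc2 at 5.80 and Fadd at 5.28 FPKM, with ranges overlapping between neighbours. Traf1, the lowest member in the control group, was thus the third highest in the treated group.

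Ratios of FPKM within a library do not depend on scaling between libraries, although a difference that follows gene length need not cancel. The 5 ratios were compared by two-sided exact permutation tests over all arrangements of the libraries, with Benjamini-Hochberg adjustment over the 5. The smallest p such a test can give is 0.00794. The genes came from the members and the pathway lists below, chosen with earlier results of these data known. Mlkl, Cflar, Birc3 and Traf1, the first genes of all ratios but Ripk3 to Ripk1, were already seen to rise without overlap. The p-values of their ratios largely restate those rises and are no separate support. The ratio of Mlkl to its kinase Ripk3 was 1.47, 1.20, 1.03, 1.52 and 1.04 in the control and 5.58, 7.76, 5.36, 3.86 and 8.04 in the ox-LDL libraries. The treated libraries all lay above the controls, and the geometric mean went from 1.24 to 5.91 (log2 difference 2.26, exact p = 0.00794, adjusted p = 0.00992). The ratio of Ripk3 to Ripk1 went from 0.391 to 0.633 with overlap between the groups (log2 difference 0.70, exact p = 0.0238, adjusted p = 0.0238).

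The ratio of the inhibitor Cflar to the protease Casp8 turned over. It was 0.184, 0.244, 0.290, 0.179 and 0.244 in the control libraries and 1.14, 1.47, 2.51, 3.17 and 2.05 in the ox-LDL libraries, so Cflar lay below Casp8 per length in every control library and above it in every treated one. The geometric mean went from 0.224 to 1.94 (log2 difference 3.11, exact p = 0.00794, adjusted p = 0.00992). Casp8 itself was 73.0 to 95.5 CPM in the control and 47.5 to 99.5 CPM in the ox-LDL libraries, with a log2 fold change of -0.25 (edgeR adjusted p = 0.440).

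The ratio of Birc3 to Birc2 was 3.19, 2.66, 2.90, 2.34 and 2.71 in the control and 6.33, 11.8, 9.14, 8.82 and 8.55 in the ox-LDL libraries. The lowest treated ratio was above every control ratio, and the geometric mean went from 2.74 to 8.76 (log2 difference 1.68, exact p = 0.00794, adjusted p = 0.00992). Reads from the identical coding run printed above could fall to either gene, and the length behind the FPKM of Birc3 differed between libraries. The ratio of Traf1 to its partner Traf2 went from 0.441 to 4.06 (log2 difference 3.20, exact p = 0.00794, adjusted p = 0.00992). It was below 1 in every control library and above 2 in every treated library.

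**Figure D3:**
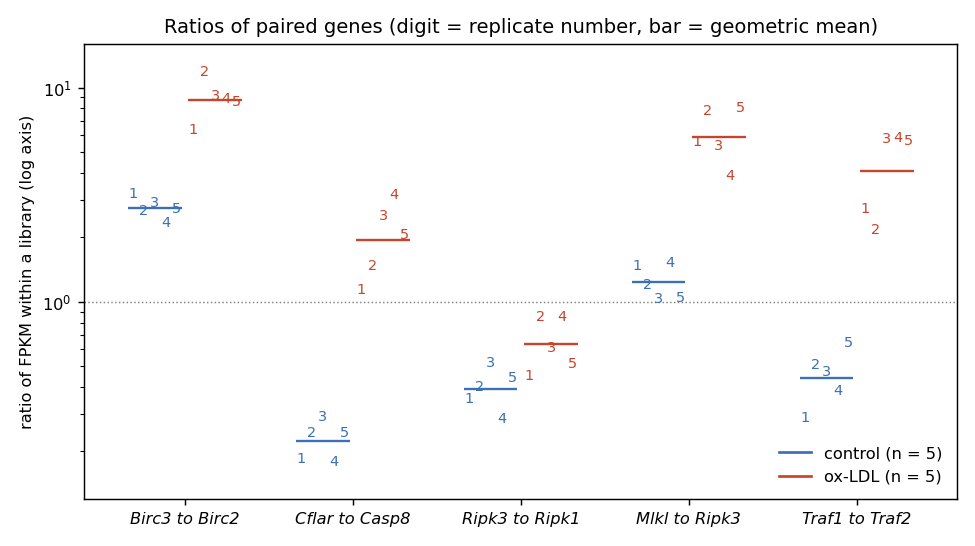
Ratio of FPKM of 2 genes within each library on a log axis, for 5 control (blue) and 5 ox-LDL (red) libraries, where each digit is a replicate number, each bar a geometric mean and the dotted line a ratio of 1. Groups are separate for 4 ratios and overlap for Ripk3 to Ripk1, and Cflar to Casp8 and Traf1 to Traf2 cross the line.

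The wider pathway was read from 67 listed genes, of which 66 had a row and 64 were tested. Of the 64, 18 rose and 1 fell, against 9.4% and 5.35% of all genes, and 45 did not pass, with a median log2 fold change of 0.51. The same shares of all genes stand beside the counts of each list below. The lists too were chosen with earlier results of these data known, so these comparisons are descriptions. The counts of 18 and 1 changed when 1 library was left out. The number that rose was 10 without control replicate 1, 11 without control replicate 2, 11 without control replicate 3, 10 without control replicate 4 and 10 without ox-LDL replicate 4, and 26 without ox-LDL replicate 2. With library size alone it was 7. Over all genes, 1189 rose, and 865, 860, 922, 826 and 949, in the order above, in the fits that gave 10 or 11. It was 1755 of all genes without ox-LDL replicate 2 and 704 with library size alone. Of the 10 fits that left out 1 library, the call was lost in 8 for Pgam5, Traf6 and Nod2, in 7 for Tnip1 and Ikbkg, in 6 for Optn, in 5 for Adar and in 3 for Rnf31, with adjusted p of at most 0.0276, and in none for the other 10 genes that rose. Of those 10, Tbk1, Traf3 and Naip2 missed the threshold with library size alone (edgeR adjusted p = 0.0374, 0.0166 and 0.0183) and in the limma fits of log2 FPKM. Slc15a3 missed it in limma on log2(FPKM + 1) without a filter (adjusted p = 0.0358). The gene that fell, Otulin, a deubiquitinase that trims linear ubiquitin chains, had a log2 fold change of -0.82 (SE 0.199, edgeR adjusted p = 0.00987, and 0.000358 to 0.0304 when 1 library was left out, with the call lost in 9 of 10 such fits). It was 55.6 to 79.4 CPM in the control and 28.1 to 54.1 CPM in the ox-LDL libraries, which did not overlap.

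Among 10 death receptors and adaptors, 4 rose and 6 did not pass. The death receptor Fas, which recruits FADD, rose by 2.63 on the log2 scale (SE 0.23), the cIAP-binding adaptor Traf2 by 1.78, its partner Traf3 by 1.54, and Traf6, which acts below Toll-like and IL-1 receptors, by 1.14. Traf6 passed in only 8 of the 24 other fits. Tnfrsf1a, the TNF receptor on which RIPK1 is recruited, had a log2 fold change of 0.66 (edgeR adjusted p = 0.0803) with overlapping groups. Fas was 4.48 to 7.30 CPM in the control and 22.7 to 46.8 CPM in the ox-LDL libraries.

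Among 20 ubiquitin ligases, deubiquitinases and kinases of the TNF receptor complex, 6 rose, 1 fell (Otulin) and 13 did not pass. Tnfaip3, which encodes the ubiquitin-editing protein A20, rose by 2.28 on the log2 scale (SE 0.30), from 28.1 to 39.2 CPM in the control libraries to 82.8 to 281 CPM in the ox-LDL libraries. Its partner Tnip1 rose by 1.60, the IKK subunit Ikbkg by 1.44, the catalytic subunit of the linear ubiquitin ligase Rnf31 by 1.38, and the kinase Tbk1 and the ubiquitin receptor Optn by 1.01 each. Control and treated libraries overlapped for Tnip1, Ikbkg and Optn. Cyld, the deubiquitinase that acts on RIPK1, had a log2 fold change of 0.22 (edgeR adjusted p = 0.478).

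**Figure D4:**
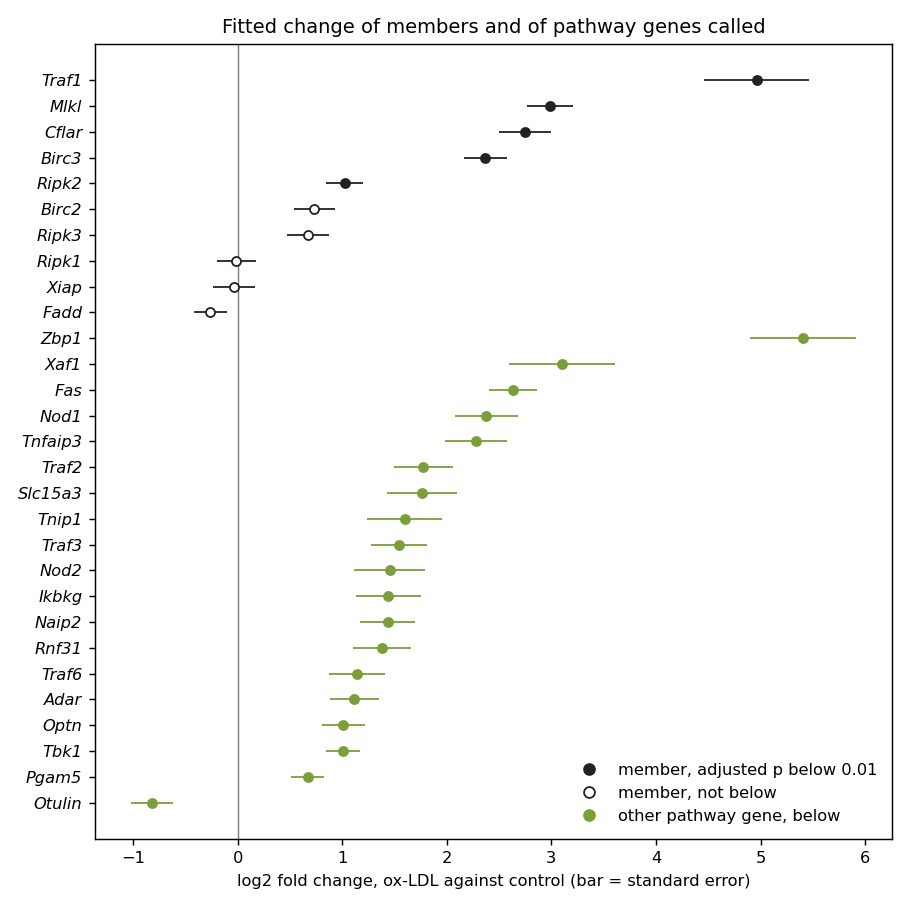
Fitted log2 fold change of ox-LDL against control with its standard error, from edgeR, for the 10 members (black, filled where the adjusted p was below 0.01, open where not) and the 19 other pathway genes that passed (green). Zbp1 and Traf1 are largest, Ripk1 and Xiap lie at 0, and Otulin is the gene to the left of 0 that passed.

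Of 6 entry points to the necrosome and its regulators, 2 rose. Zbp1, the RHIM protein that senses left-handed nucleic acids and binds RIPK3, was 6.63 to 13.4 CPM in the control and 223 to 943 CPM in the ox-LDL libraries. Its log2 fold change was 5.41 (SE 0.51, edgeR adjusted p = 2.95e-05), larger than that of any member. Its highest library was ox-LDL replicate 2, not replicate 5 as for most members, and without replicate 2 the log2 fold change was 4.87. Adar, the RNA editing enzyme known to restrain ZBP1, rose by 1.11 with overlapping groups. Ticam1, the RHIM adaptor of TLR3 and TLR4 also known as TRIF, had a log2 fold change of 1.12 (edgeR adjusted p = 0.0253), which passed without ox-LDL replicate 2 (1.29, adjusted p = 0.000671) and in DESeq2 (adjusted p = 0.00683).

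Of 10 regulators that act on or after the necrosome, 1 rose, which is near the 9.4% of all genes tested. It was Pgam5, a mitochondrial phosphatase, which rose by 0.67 (edgeR adjusted p = 0.170 with library size alone), and the other 9 did not pass. Of 8 NOD receptors and partners of Ripk2, 3 rose and 5 did not pass. Nod1 rose by 2.38 (3.55 to 8.08 CPM in the control and 18.9 to 40.8 CPM in the ox-LDL libraries), the peptide transporter Slc15a3 by 1.76, and Nod2 by 1.45 from a low level (0.979 to 2.13 CPM and 2.06 to 5.85 CPM). Nod2 passed in only 9 of the 22 other fits that tested it. Of 9 other IAP genes and antagonists tested, Xaf1, which encodes a XIAP-binding protein, rose by 3.10 and Naip2, which encodes an inflammasome sensor with near-identical neighbours that could share its reads, by 1.43. In the remaining RIP kinase family list, 1 gene was tested and did not pass.

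After each group's mean was taken off, the 3 genes outside the lists whose levels most resembled each member that rose were found among 7638 genes over the 10 libraries, by Pearson correlation of log2 CPM. The points share libraries and their scaling, and the correlations are descriptions. For Traf1 they were Zfand5 (0.98), Il17ra (0.98) and Stk40 (0.97), and for Cflar they were Slc2a1 (0.97), Fem1c (0.97) and Pfkp (0.96). For Mlkl they were Gosr2, Atp5b and Fam207a (0.96 each), for Birc3 they were Prkar1a (0.96), Mkln1 (0.96) and Il13ra1 (0.95), and for Ripk2 they were Tor3a (0.93), Sqor (0.93) and Lpcat2 (0.92). No gene was on more than 1 of these lists. When 1 library was left out, the correlations of Ripk2 fell to as low as 0.80 with Tor3a, 0.81 with Sqor and 0.76 with Lpcat2. Those of the other members with their listed genes were at least 0.87. Between members, the highest correlation of any pair was 0.91, for Cflar and Traf1.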

How the data were processed

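The deposited files give, per the labels and the study's methods, 5 control and 5 ox-LDL libraries sequenced on the BGISEQ-500. Alignment to mm9 was by HISAT2 2.0.5 and assembly by StringTie, per the submitters' processing notes. They deposited estimated counts per gene, not normalized, of which 13.6% were not whole, and a value per gene that the authors did not name and that is treated as FPKM, since counts divided by it and by the library total gave a nearly constant length (median coefficient of variation 1.21% over 7022 genes). For Birc3 and Cflar this length was less constant. Birc3 held 385 counts at 8.65 FPKM in control replicate 1 and 1180 counts at 32.7 FPKM in ox-LDL replicate 2. Cflar held 711 counts at 9.18 FPKM in control replicate 2 and 1733 counts at 31.4 FPKM in ox-LDL replicate 2. Their FPKM ratios thus reflect length as well as counts. Whether counting used the strand is not given in the sources used here.

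Counts were rounded, 9788 circular RNA rows (1.44% to 2.24% of counts) were left out, and edgeR 4.0.16 (TMM, filterByExpr, robust quasi-likelihood test, R 4.3.3) was fitted to all genes, with calls at an adjusted p below 0.01. Between replicates the biological coefficient of variation was 37.3%. Replicates differed by more than sampling noise in every pairing. Depth was 20094647 to 20687289 counts in the control and 19257131 to 20358017 in the ox-LDL libraries, which limits precision for members with few counts (52 in the lowest library). Ratios used FPKM with 0.1 added. Symbols came from a RefSeq table, positions from GENCODE on mm9, promoters from RefSeq GRCm38.p6. Scripts were tested on simulated data.

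The members and lists were chosen with earlier results of these data known. Named were all members, every pathway gene called, Casp8, Zbp1, Ticam1, Tnfrsf1a, Tnfaip3, Cyld, Traf2 and Nod2 whatever their values, and the 3 genes most like each member called, among genes with at least 10 CPM. Alternatives were DESeq2 1.42.0, limma 3.58.1 (voom, and log2(FPKM + 1) or log2(FPKM + 0.1)), other scalings, filters, rows and thresholds, a length correction, a replicate block and each library left out.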

Additional observations from a re-analysis of the deposited data

Results flagged for a closer look

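With 5 libraries in a group, a library was marked when its gap to the nearest other library was more than 0.71 of the group's range. Over 76 groups of named genes and ratios, 7 were marked, where chance marks about 1 in 20. In the ox-LDL group, Ripk2 was highest in replicate 5 at 38.4 CPM (next 28.0 CPM), Fadd was highest in replicate 2 at 17.1 CPM (next 14.7 CPM) and Xiap was lowest in replicate 2 at 40.7 CPM (next 68.8 CPM). By library size, chosen after the data were seen, ox-LDL replicate 2 was instead the lowest treated library for Fadd (9.99 CPM) and was still the lowest for Xiap (23.7 CPM), and Ripk2 was 31.6 CPM in replicate 5 next to 30.4 CPM in replicate 4. Traf2, the cIAP-binding adaptor, was highest in ox-LDL replicate 5 at 67.2 CPM (next 32.9 CPM), and Optn, the ubiquitin receptor, was lowest in ox-LDL replicate 1 at 34.9 CPM (next 60.7 CPM). In the control group, replicate 5 was highest for Tnip1 at 61.6 CPM (next 42.3 CPM) and for Nod1 at 8.08 CPM (next 4.83 CPM). Ripk2 rose and Xiap and Fadd missed the threshold both with and without these libraries.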

How the results depend on the processing

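The number of members that rose, 5, was 4 to 7 under all alternatives, and no member fell under any. Over all genes the number that rose, 1189, was 469 to 2045 under the alternatives. The 7 members with all ox-LDL above all control libraries were 4 by library-size CPM and 4 in FPKM, alternatives chosen after the data were seen. Log2 fold changes ranged from 4.09 to 5.17 for Traf1, 2.64 to 3.09 for Mlkl, 2.51 to 2.86 for Cflar, 2.10 to 2.46 for Birc3 and 0.72 to 1.09 for Ripk2, whose highest adjusted p was 0.0386. Birc2 ranged from 0.44 to 0.78 and passed under 4 alternatives (DESeq2 with and without independent filtering, without ox-LDL replicate 2, length trend removed), and Ripk3 from 0.44 to 0.76 and passed under 2 (DESeq2). Ripk1 ranged from -0.21 to 0.062, Xiap from -0.35 to 0.060 and Fadd from -0.46 to -0.19, and none of these passed under any alternative. With the length trend removed Xiap was at -0.31 (edgeR adjusted p = 0.0666). When 1 library was left out, Ripk1 ranged from -0.13 to 0.062 (0.0061 without control replicate 5, 0.062 without ox-LDL replicate 2 and 0.015 without ox-LDL replicate 4). Xiap then ranged from -0.11 to 0.060 (0.0096 without control replicate 2, 0.060 without ox-LDL replicate 2). Cyld turned to -0.0077 with log2(FPKM + 1), with and without a filter, to -0.028 with log2(FPKM + 0.1) and to -0.10 with the length trend removed; the cause was not tested.

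Of the pathway genes, 18 rose, but 7 with library size alone, 7 with log2(FPKM + 1), 7 with log2(FPKM + 0.1), 6 with log2(FPKM + 1) without a filter, 5 with a log2 fold change above 2 required, and 10 to 26 when 1 library was left out. The 1 that fell was 3 with DESeq2 with or without independent filtering, 3 at an adjusted p below 0.05, 6 with the length trend removed, and 0 without a filter on low counts, with at least 10 counts in every library, with NCBI rows alone, with circular RNA rows, with the fold cutoff and under the replicate block, and 0 to 4 when 1 library was left out. All genes called were 1866, and 3009 with DESeq2 in both forms, 1026 with log2(FPKM + 1) without a filter, 2876 with the length trend removed, 3365 at an adjusted p below 0.05, 849 with the fold cutoff, and 1262 to 3257 when 1 library was left out. The share of higher calls was 63.7%, but 54.7% with library size alone, 54.2% with upper-quartile factors, 53.9% and 3257 calls without ox-LDL replicate 2, and 42.6%, 43.7% and 45.7% with log2(FPKM + 1), log2(FPKM + 0.1) and log2(FPKM + 1) without a filter. The median of all genes moved from 0.10 to -0.09 with library size alone, to -0.14 with log2(FPKM + 1) and to -0.18 with log2(FPKM + 0.1). The cause of these shifts was not tested.

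Same-numbered control and ox-LDL libraries had correlations of deviations from -0.24 to 0.40, with 2 of 5 over 0.1 and 1 of 5 controls most like its own number, so the numbers were not taken to pair the samples. With the replicate block, 4 members rose (Ripk2 had an adjusted p of 0.0124) and 1434 genes were called. For the 5 ratios the mean of paired differences equals the difference of group means, so the replicate block could not change the values. They were log2 differences of 1.68 for Birc3 to Birc2, 3.11 for Cflar to Casp8, 0.70 for Ripk3 to Ripk1, 2.26 for Mlkl to Ripk3 and 3.20 for Traf1 to Traf2. The exact sign-flip p rose to 0.0625 for each, the smallest that 5 pairs can give, so no ratio could pass 0.05 in this form.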
